A study of Mus musculus with 5 samples.

Results

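Heat shock proteins, their DnaJ co-chaperones and the BAG nucleotide exchange factors fold, hold and refold other proteins. Their genes were taken by symbol from the protein-coding genes of the GENCODE vM1 annotation of the mm9 mouse genome: symbols that begin with Hspa, Hspb, Hspd, Hspe, Hsph, Hsp90, Dnaja, Dnajb, Dnajc or Bag and go on with a digit, together with Hsf1 and Hsf2. This rule used no measured value and found 81 of 22380 protein-coding gene records. They carry 80 symbols, because Hspa14 is annotated as 2 overlapping records that share their peaks. Peaks were assigned to every gene with an annotated transcript start at most 10 kb from the peak's centre, which took in 260 of the 34286 peaks of DOP-treated cells and 264 of the 33355 peaks of untreated cells.

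The peaks come from H3K9ac ChIP-seq of STHdh Q111 cells, an immortalized line of striatal progenitors from C57BL/6 mice with the genotype STHdhQ111/Q111, in which huntingtin carries an expanded CAG repeat. All cells were kept without serum for 24 h, and they received either 4 mM 4-deoxypyridoxine hydrochloride (DOP), an inhibitor of sphingosine-1-phosphate lyase, or the DPBS vehicle alone (untreated). There were 2 H3K9ac samples per condition and 1 IgG sample of untreated cells, and wild-type cells were not analysed here. The authors deposited 1 list of peaks per condition, called the DOP list and the untreated list here. No error between samples can therefore be given for any value and no test was possible: each difference is between 2 lists.

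Every peak has a position and a score. The lists do not define the score and the depth behind it is unknown, so each score was first ranked within its own list, and its percentile is the share of peaks of that list with a lower score. The median score of all peaks was 419 (DOP) and 400 (untreated). Scores were whole numbers for 91.1% of DOP-treated and 91.8% of untreated peaks with no neighbour within 500 bp (within 0.05 of a whole number), but for only 12.4% and 13.1% of peaks that had one. The scores of neighbouring peaks added up to a whole number in 93.7% and 93.2% of runs of peaks spaced by at most 1 kb. A region called as a pair of adjacent peaks in one list and as a lone peak in the other can differ in its highest score while its summed score is alike, so both readouts are given below. A sum moves with how much was called, and the length that the peaks cover and their mean score stand beside it. Distances from a start are negative upstream and positive downstream.

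As background, cells answer unfolded protein by activating heat shock factors, which bind heat shock elements, inverted repeats of a short GAA unit, at the promoters of chaperone genes. HSP70 proteins then bind exposed hydrophobic stretches in a cycle of ATP hydrolysis that DnaJ proteins start and BAG and HSP110 proteins reset, while HSP90 matures signalling proteins and the small heat shock proteins hold unfolded protein without ATP. This network is well known in polyglutamine disease, because several of its members act on aggregates of expanded huntingtin. H3K9ac marks nucleosomes next to active transcription starts.

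The labelled cell type was compared with marker genes. Among neural progenitor markers, Vim had 3 DOP-treated and 4 untreated peaks with a highest percentile of 98 and 94, and Notch1 had 4 and 2 peaks, whereas Nes, Sox2 and Pax6 had no peak in either list. Of the striatal lineage genes, Dlx1, Foxp1 and Ebf1 had peaks in both lists, Dlx2 had 1 peak in the DOP list only, and Dlx5, Gsx2 and Bcl11b had none. Only Ppp1r1b among 6 genes of mature medium spiny neurons had a peak. The astrocyte genes Gfap and Aqp4 and the endothelial genes Pecam1 and Cdh5 had none, nor had Cx3cr1 and Thy1. Mbp, of oligodendrocytes, had 2 peaks in the DOP list only, at a percentile of 7.58 or lower, and the microglial gene Aif1 had 4 and 5 peaks, of which 0 lay nearest to its own start. The collagen gene Col1a1, a fibroblast gene, had 5 peaks in each list, and its highest peak stood at the percentile of 89.6 in the DOP-treated and 63.7 in the untreated list. Col1a2 had 2 and 1 peaks, with a highest percentile of 23.5 and 25.5. The part of any other cell type in the values below was not tested.

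Most chaperone genes had H3K9ac peaks within 10 kb of a start in both conditions. A peak was found near 72 of the 81 genes (88.9%) in the DOP list, beside 57.7% of all protein-coding genes, and near 72 (88.9%) in the untreated list, beside 56.9%. These were the same 72 genes. No chaperone gene had a peak in the DOP list only, as 2.39% of all genes did, and none had a peak in the untreated list only, as 1.62% did. The genes with peaks had a median of 4 DOP-treated and 3 untreated peaks, and the median of all genes with a peak was 3 in each list. For 173 of the 260 DOP-treated and 176 of the 264 untreated peaks the nearest start of any protein-coding gene belonged to a chaperone gene, and the others lay closer to a neighbouring gene. A peak nearest to the gene's own start was found at 64 of the 81 genes in each list. Of all 22380 genes, 11713 had such a peak in the DOP list and 11502 in the untreated list. At the edge of the window, the last DOP-treated peak inside lay 9997 bp from a start of Dnajc17 and the next one outside lay 10119 bp from Hsp90b1. In the untreated list the corresponding peaks lay 9876 and 10099 bp from Hspa1a.

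Most chaperone peaks were found in both lists. An overlap of at least 1 bp with a peak of the other list was missing for 27 DOP-treated peaks (10.4%, beside 16.2% of DOP-treated peaks near any protein-coding gene) and for 33 untreated peaks (12.5%, beside 13.3%). These were low peaks: their median percentile was 30.7 in the DOP-treated and 25.8 in the untreated list, against 64.7 and 65.1 for chaperone peaks with an overlap. For all genes these medians were 22 and 22.6 without an overlap and 61.3 and 59.7 with one. Above the median score of their list stood 4 of the 27 (14.8%, beside 15.3% of such peaks of all genes) and 4 of the 33 (12.1%, beside 17.9%). A peak of the other list was centred within 500 bp of 11 of the 27 (40.7%, beside 38.2%) and of 18 of the 33 (54.5%, beside 44.4%). The highest of them were a DOP-only peak at the percentile of 84.7 and an untreated-only peak at 89.5, which lay 217 bp apart upstream of Dnajb14 and nearest to a start of H2afz, a histone gene.

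**Figure D1:**
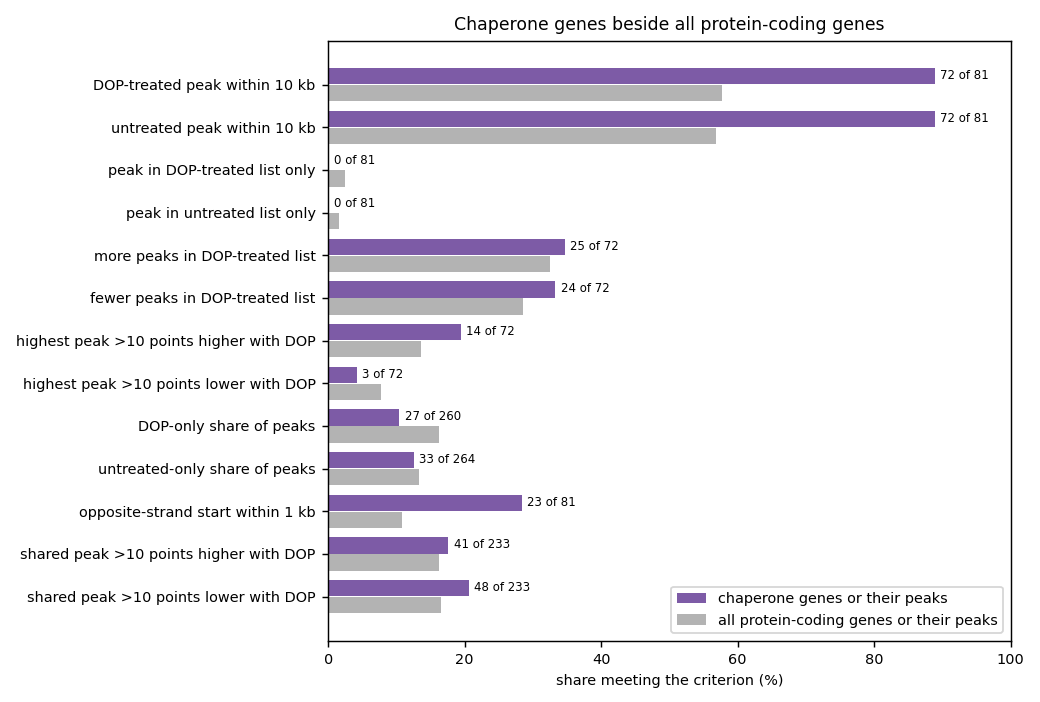
Shares of chaperone genes or their peaks (purple, with the counts) and of all protein-coding genes or their peaks (grey) that met each criterion, in percent. The largest gaps are in having any peak within 10 kb (88.9% against 57.7% and 56.9%) and in having a start of another gene on the opposite strand within 1 kb (28.4% against 10.8%). The shares that compare the lists lie near each other.

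The number of peaks per gene went both ways. The DOP list held more peaks at 25 of the 72 genes (34.7%, beside 32.5% of all genes with a peak in either list) and fewer at 24 (33.3%, beside 28.5%), and the numbers were equal at 23. Hspa9, which encodes mitochondrial HSP70, had the most, with 10 and 11 peaks (DOP list first), and its own starts were the nearest to 5 and 6 of them. Dnaja3 had 9 and 8, Dnajc17 had 8 and 7, Dnajc4 had 6 and 9, and Hspb6 had 9 and 6. The largest difference was at Hspb1, which encodes the small heat shock protein HSP25 of the mouse, with 1 DOP-treated and 6 untreated peaks. Dnajc1 showed the opposite order, with 5 and 2.

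**Figure D2:**
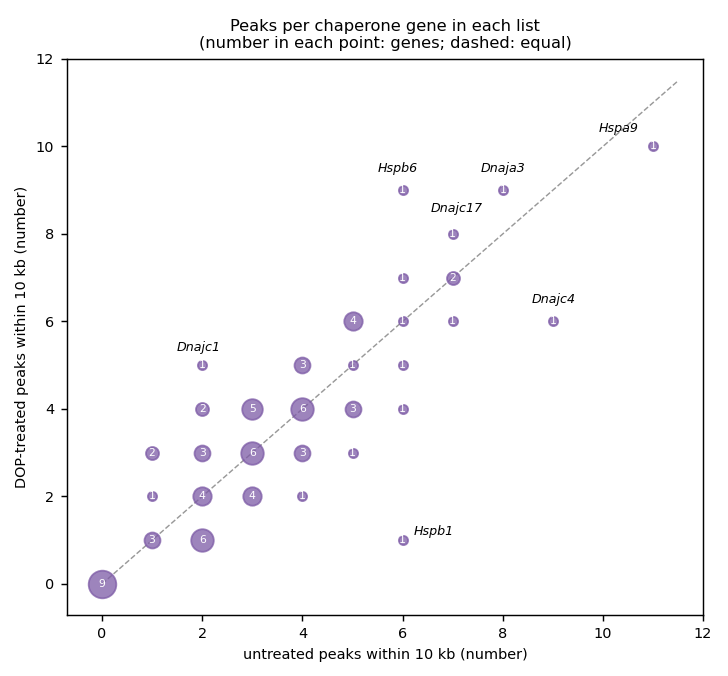
Number of peaks within 10 kb of each of the 81 chaperone genes in the untreated list (horizontal) and in the DOP list (vertical). The number in each point counts the genes there and the dashed line marks equal numbers, so that 23 genes with peaks and the 9 genes without any lie on it, with 25 above and 24 below.

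The sequences through which heat shock factors bind were read from the mm9 genome around the starts of these genes. A heat shock element was searched on both strands as 3 alternating units without a mismatch, GAANNTTCNNGAA or TTCNNGAANNTTC, from 250 bases before to 50 bases after a start. At the start of the whole gene, 1 of 81 genes held it (1.23%, beside 0.483% of all promoters of this length), which was Hspe1. Taking every annotated transcript start, which gives genes with several starts several windows, 8 of 81 held it (9.88%, beside 1.21%): Dnaja1, Dnajb6, Dnajc1, Hsp90aa1, Hspa8, Hspd1, Hspe1 and Hsph1. They are printed here, without Dnajc1, because they place the known element of the heat shock response relative to the acetylated positions of the named genes. Each runs 5′ to 3′ on the strand of its gene, and capitals mark the element.
Hspe1, chr1:55144897-55144926, plus strand: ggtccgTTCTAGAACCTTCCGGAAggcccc
Hspa8, chr9:40609138-40609166, plus strand: gcgagcgtGAAAGTTCCAGAAcgccgcgg
Hspa8, chr9:40609296-40609324, plus strand: cggcacccTTCTGGAAGGTTCtaagacag
Hsp90aa1, chr12:111934589-111934617, minus strand: gagggttcTTCCGGAAGGTTCcggaggct
Hsph1, chr5:150438855-150438883, minus strand: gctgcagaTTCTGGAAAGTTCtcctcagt
Dnaja1, chr4:40669559-40669587, plus strand: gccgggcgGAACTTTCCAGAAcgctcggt
Dnajb6, chr5:30062384-30062412, plus strand: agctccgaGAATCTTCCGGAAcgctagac
The element of Hspe1 is 18 bases long because a pair of matches overlap, and Hspd1, which starts close by on the opposite strand, holds the same bases read on the other strand. It lay 443 bp from the nearest DOP-treated and 475 bp from the nearest untreated peak centre. These distances were 107 and 69 bp at Dnajb6, 247 and 206 bp at Dnaja1, 320 and 343 bp at Hsp90aa1, 330 and 291 bp at Hsph1, and 268 and 259 bp for the element of Hspa8 nearer to its peaks. All of these elements touch an annotated exon of some protein-coding gene, which need not be the named one, and each lay within 500 bp of a peak of both lists. That of Hspe1 begins at -73 bp and lies outside the Hspe1 gene itself. That of Dnajc1 lies at another start of the gene, 153915 bp from the nearest DOP-treated and 153860 bp from the nearest untreated peak centre. Within the 200-bp peaks themselves the element was found in 3 of 260 DOP-treated chaperone peaks (1.15%, beside 0.23% of all peaks) and in 5 of 264 untreated ones (1.89%, beside 0.249%).

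The heat shock factor genes ranked high in both lists. Hsf1 encodes the main factor of the heat shock response. Its highest peak lay 243 bp downstream of a start with a score of 1615.8 in the DOP list (percentile 97.5) and 226 bp downstream with 1248.1 in the untreated list (93.4). Summed over the peaks within 1 kb, however, the order turned, with 3390.0 in the DOP list and 3690.0 in the untreated list, which holds another peak at 307 bp with a score of 588.8. Hsf2, a related factor with a part in development, had its highest peak at 426 bp with a score of 1476.7 (96.4) and at 434 bp with 1247.4 (93.4), and its summed scores were 2013.0 and 1890.0. These sums come from 5 and 5 peaks over 948 and 849 bp with mean scores of 678.0 and 738.0 at Hsf1, and from 2 and 2 peaks over 400 and 336 bp with 1006.5 and 945.0 at Hsf2. Summed scores were compared as shares of the total score of each list, 18396001 and 17366891, and sums without this division are called undivided. On that scale the log2 ratio of DOP-treated to untreated was -0.21 at Hsf1 and 0.01 at Hsf2.

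All 3 HSP90 genes had peaks in both lists. Hsp90aa1, the inducible cytosolic form, had its highest peak at -122 bp with a score of 1085.2 (percentile 89.6) in the DOP list and at -99 bp with 1021.0 (88.5) in the untreated list. The DOP list held 4 peaks there and the untreated list 2, and the summed scores were 1786.0 and 1311.4, a log2 ratio of 0.36. Hsp90ab1, the constitutive form, had 2628.0 from 4 peaks and 1949.0 from 3, a log2 ratio of 0.35, and its highest peak in either list lay at 5519 and 5515 bp, nearest to Slc35b2. The peaks within 1 kb covered 768 and 400 bp at Hsp90aa1, with mean scores of 446.5 and 655.7, and 800 and 600 bp at Hsp90ab1, with 657.0 and 649.7. At both genes the added DOP-only peak stood at a percentile of 42 or lower. Hsp90b1, which encodes GRP94 of the endoplasmic reticulum, had summed scores of 2583.2 from 3 peaks over 600 bp and 2654.9 from 4 over 800 bp, with means of 861.1 and 663.7 and a log2 ratio of -0.12.

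Of the 12 HSP70 gene records 10 had peaks, and only Hspa12a and Hspa12b, distant members of the family, had none. Hspa8, the constitutive HSC70, had its highest peak at -417 bp with a score of 1079.6 (89.5) in the DOP list and at -565 bp with 1217.9 (92.9) in the untreated list. At 34 and 25 bp it had scores of 803.5 and 353.3, and the untreated list had another peak of 801.2 at 178 bp. The sums, 2842.1 from 4 peaks over 800 bp (mean 710.5) and 2823.0 from 5 over 953 bp (564.6), gave a log2 ratio of -0.07. Hspa5, which encodes BiP of the endoplasmic reticulum, had sums of 2202.0 from 4 peaks over 722 bp (mean 550.5) and 2216.0 from 3 over 600 bp (738.7), a log2 ratio of -0.09. Hspa2, best known from the testis, had 3 matching peaks in each list, all of them higher in the DOP list, with sums of 893.0 and 710.0 over 600 bp in each list (means 297.7 and 236.7) and a log2 ratio of 0.25. The highest peak stood over 10 points higher in the DOP list at 5 of the 10 HSP70 records with peaks (50%, beside 13.6% of all genes) and over 10 points lower at 0 (beside 7.68%), with a median shift of 7.6 points (0.6 for all genes). These 5 were Hspa2, both records of Hspa14, which share their peaks, and Hspa1a and Hspa1l. The highest DOP-treated peak of Hspa1a and Hspa1l is the same one, with a score of 836.5, and lies nearest to a neighbouring gene. The 5 records thus rest on fewer separate peaks than the share counts. The summed scores of the 8 HSP70 records with peaks within 1 kb in both lists had a median log2 ratio of -0.08. Of these ratios, 3 lay above 0 and 5 below (62.5%, beside 48.3% of all genes). On undivided sums 4 were higher and 4 lower (50%, beside 33.4%).

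Hspa1a and Hspa1b are the stress-inducible HSP70 genes. At Hspa1a the DOP list held 2 peaks within 1 kb, at 169 bp with a score of 61.7 (5.02) and at -258 bp with 74.3 (6.72), and the untreated list held none. The same 2 peaks were the only ones within 1 kb of Hspa1l, which starts 579 bp away on the opposite strand. The peak that ranked highest within 10 kb of Hspa1a, with 836.5 (80.7) in the DOP-treated and 519.7 (62) in the untreated list, lay at -9935 and -9876 bp and nearest to Lsm2. A higher untreated peak, with 626.6 (70.2), lay just outside this window, 10099 bp from the start. At Hspa1b the peaks nearest to the start lay at -434 bp with 666.0 (71.3) and at -463 bp with 712.0 (75.6), and its highest, with 1338.0 and 1084.5, lay at 7098 and 7086 bp. Reads of these near-identical genes are uncertain. Of the 36-base words in the 2000 bases after the start, 87.1% of those of Hspa1a occur in Hspa1b and 85.8% of those of Hspa1b in Hspa1a, and the share is 38.3% in the 500 bases before the start and 0 farther upstream. A stretch of 62 bases of both promoters, shown because reads from either gene would match both there, is identical at 62 of 62 positions. Capitals mark an inverted repeat GAANNTTC and a CCAAT box read on the other strand.
Hspa1a, chr17:35109154-35109215, minus strand: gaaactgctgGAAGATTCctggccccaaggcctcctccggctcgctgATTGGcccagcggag
Hspa1b, chr17:35096236-35096297, minus strand: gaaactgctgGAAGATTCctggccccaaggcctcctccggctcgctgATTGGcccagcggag
The inverted repeat stands at -136 bp from the start of Hspa1a and at -104 bp from that of Hspa1b. The weak DOP-only peaks of Hspa1a, centred at 169 and -258 bp, both lie in windows where part of the words are shared with Hspa1b. Whether the bases under these peaks are among the shared ones was not tested.

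The HSP110 proteins Hsph1, Hspa4 and Hspa4l reset HSP70 and take part in dissolving aggregates. All 3 highest peaks ranked lower in the DOP list, with a median difference of -4.0 percentile points. Among all 12375 genes with peaks in both lists, 5422 ranked lower in the DOP list and 6953 higher. Hsph1 and Dnajc1 had the largest downward differences in rank of all chaperone genes. Its highest peak had a score of 679.6 at 322 bp in the DOP list (72.2) and of 1209.0 at 248 bp in the untreated list (92.7), a difference of -20.5 points. The DOP list held another peak of 572.4 at 207 bp, on the other side of the untreated position. Summed within 1 kb, Hsph1 had 1771.0 from 4 DOP-treated peaks over 715 bp and 1558.2 from 2 untreated peaks over 400 bp, with mean scores of 442.8 and 779.1, and the log2 ratio was 0.10, the opposite direction. Hspa4 had sums of 3188.0 and 3404.6 from 3 peaks in each list over 509 and 495 bp (means 1062.7 and 1134.9, log2 ratio -0.18) and Hspa4l had 2953.0 and 3296.0 from 4 in each over 662 and 800 bp (means 738.2 and 824.0, log2 ratio -0.24).

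Hspd1 and Hspe1 encode the mitochondrial chaperonin HSP60 and its lid HSP10, and they share a bidirectional promoter. Their joint highest peak lay at 400 bp of Hspd1 with a score of 1285.4 in the DOP list (93.8) and at 432 bp with 1361.4 in the untreated list (95), and the highest peak on the side of Hspe1 had 849.3 and 930.2. Over the 4 peaks within 1 kb the sums were 3096.8 and 3185.0 over 800 bp in each list (means 774.2 and 796.2), a log2 ratio of -0.12. The 7 mitochondrial genes of a list of compartments add Hspa9, Dnaja3, Dnajc11, Dnajc15 and Dnajc19 to this pair. Their highest peaks had a median shift of -1.9 points, with 1 above 0 and 6 below. Among all 12375 genes with peaks in both lists, 6953 shifts lay above 0 and 5422 below. At Hspa9 the highest peak lay at 7651 and 7682 bp, nearest to another gene. The highest peak nearest to a start of Hspa9 had 862.6 (81.9) in the DOP list and 1244.8 (93.3) in the untreated list. Dnajc11, a protein of the cristae, had 1301.1 (94.1) and 1515.8 (96.5), and Dnajc19, of the import motor, had 73.4 and 84 as the percentiles of its highest peak. The summed scores of these 7 genes gave a median log2 ratio of -0.12, and 6 of the 7 lay below 0 (85.7%, beside 48.3% of all genes). On undivided sums 1 was higher in the DOP list, 5 were lower (71.4%, beside 33.4%) and 1 was equal. The lowest was -0.29 at Hspa9, with 2400.0 from 3 peaks over 600 bp (mean 800.0) and 2767.8 from 4 over 800 bp (692.0). Hspd1 and Hspe1, whose peaks are the same, were counted separately in the ranks and in the sums of the 7 genes.

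Of the 8 Hspb genes, which were grouped by symbol alone, 7 had a peak within 10 kb. Only Hspb6, Hspb8 and Hspb11 had peaks within 1 kb of a start in both lists. Hspb1, a strongly heat-inducible gene, had only a peak at -9809 bp in the DOP list, with a score of 177.4 (20.4). In the untreated list it had the matching peak of 148.0 (17.7) at -9838 bp, 3 peaks between -8473 and -7704 bp, and weak peaks of 74.6 (7.65) and 30.4 (1.39) at 161 and 544 bp. Of the 5 untreated-only peaks the highest stood at the percentile of 8.57. Hspb8, which works with Bag3 in the disposal of misfolded protein, had its highest peak at 349 bp with 824.1 (80.1) and at 527 bp with 765.0 (78.5), and sums of 1266.0 and 1058.0 from 2 peaks over 400 bp each (means 633.0 and 529.0). Hspb6, a gene of muscle, had sums of 2139.0 and 1641.0 from 3 peaks over 600 bp each (means 713.0 and 547.0), all higher in the DOP list, a log2 ratio of 0.30. The muscle gene Hspb3 had no peak, and the peaks of Hspb2, Hspb7 and Hspb9 lay more than 1 kb from their starts.

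**Figure D3:**
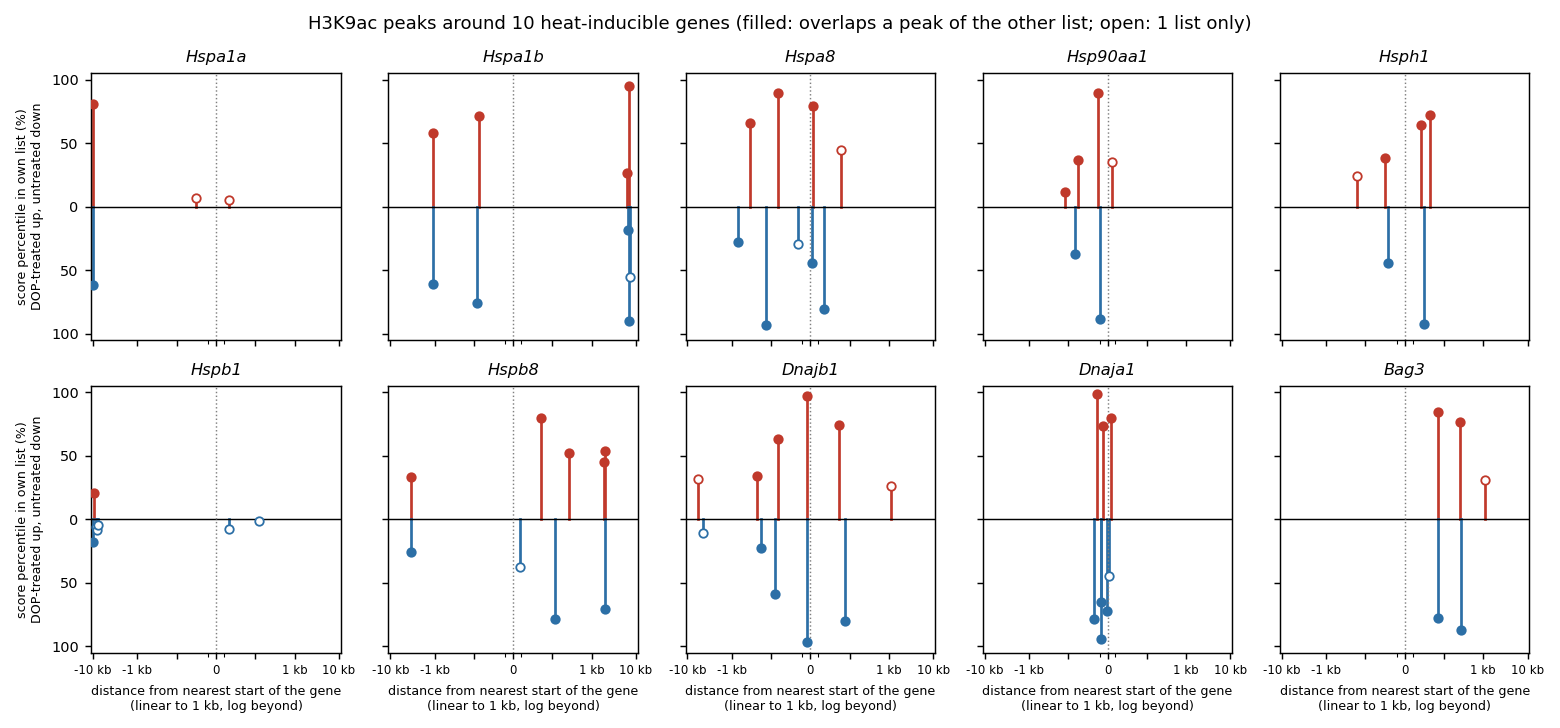
Peaks around the 10 genes of the heat-inducible list, by distance of the centre from the nearest start of the gene (linear to 1 kb, logarithmic beyond) and by score percentile within the list, for DOP-treated (up, red) and untreated cells (down, blue). Filled points overlap a peak of the other list and open points do not. Hspa1a and Hspb1 have only points below the percentile of 10 within 1 kb of the start. The highest peaks of Dnajb1, Dnaja1, Hsp90aa1 and the constitutive Hspa8 reach 88 or more in both lists.

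The 10 genes of the heat-inducible list, which includes the constitutive Hspa8, thus varied widely in acetylation. They held 37 peaks in each list, of which 8 were DOP-only (21.6%, beside 16.2% of peaks near all genes and 10.4% near all chaperone genes) and 10 untreated-only (27%, beside 13.3% and 12.5%). Of the 10 untreated-only peaks, 5 were the low peaks of Hspb1 alone. The highest peak ranked above in the DOP list at 7 of the 10 and below at 3, with a median shift of 1.4 points. For all 12375 genes with peaks in both lists these counts were 6953 and 5422. Of the 8 genes of the heat-inducible list with peaks within 1 kb in both lists, 3 had a summed log2 ratio above 0. The other 5 lay below (62.5%, beside 48.3% of all genes), and the median of the 8 was -0.04. On undivided sums 5 were higher in the DOP list and 3 lower (37.5%, beside 33.4%). Dnajb1, the main partner of HSP70 after heat shock, had the same highest position in both lists, at -44 bp, with scores of 1548.1 (96.9) and 1474.2 (96.2). Bag3, a heat-induced adaptor of selective autophagy, had peaks at 427 and 706 bp with 934.1 and 758.1 in the DOP list and at 423 and 721 bp with 750.0 and 971.0 in the untreated list, so that the higher of the pair changed places while the sums were 1692.2 and 1721.0 over 400 bp each. Over 10 kb the direction of the summed ratio turned at Dnajb1 (-0.01 within 1 kb, 0.15 over 10 kb), at Bag3 (-0.11 and 0.09) and at the chaperonin pair (-0.12 and 0.04).

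DnaJ proteins bring substrates to HSP70 and start its ATP cycle. All 4 class A genes had peaks. Dnaja1, of the cytosol, had a highest score of 1848.7 in the DOP list (98.7) and 1287.3 in the untreated list (94), but the DOP list held 3 peaks within 1 kb and the untreated list 5, with sums of 3358.0 over 600 bp and 3620.0 over 888 bp (means 1119.3 and 724.0) and a log2 ratio of -0.19. The summed log2 ratios of the 4 class A genes were all below 0 (beside 48.3% of all genes), from -0.31 at Dnaja4 to -0.13 at Dnaja2. Their undivided sums were lower in the DOP list as well (beside 33.4% of all genes). Dnaja3, of the mitochondrion, had 3103.0 and 3564.0 over 1000 bp each (means 620.6 and 712.8), a log2 ratio of -0.28.

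Of the 13 class B genes 10 had peaks, and they included the highest scores of all chaperone genes. Dnajb4 had a peak of 2746.4 (99.8) and of 2817.6 (99.8) on the side of Fubp1, a gene that starts 179 bp away on the opposite strand, and peaks of 2361.0 (99.5) and 2672.0 (99.7) at its own start. Dnajb12, of the endoplasmic reticulum membrane, had 2421.2 (99.6) and 2036.5 (99), but 3 DOP-treated and 4 untreated peaks with sums of 3641.0 over 600 bp and 4380.0 over 790 bp (means 1213.7 and 1095.0), a log2 ratio of -0.35. Dnajb6, known for holding back polyglutamine aggregation, had the lowest summed ratio of the 64 genes with peaks within 1 kb in both lists: 2726.0 from 4 peaks over 719 bp and 3452.0 from 5 over 849 bp, with means of 681.5 and 690.4 and a log2 ratio of -0.42. Within 1 kb an untreated peak of 426.0 at 923 bp was counted. The DOP-treated peak of 269.0 that overlaps it lay at 1075 bp and was left out. Over 10 kb, with 5 peaks in each list, the log2 ratio of Dnajb6 was -0.29 and no longer the lowest. Dnajb2, which is expressed in neurons and also acts on polyglutamine proteins, lay at the other end, with 1576.0 from 3 peaks over 600 bp and 1057.0 from 2 over 400 bp, with means of 525.3 and 528.5 and a log2 ratio of 0.49. It had a DOP-only peak of 217.0 at -326 bp. Dnajc7, a partner of both HSP70 and HSP90, had its highest peak nearest to Nkiras2, with 1046.4 (88.6) and 1118.8 (90.8). In the list of 8 genes that act on polyglutamine aggregates, 7 had peaks, and Dnajb8, a testis gene, had none. Of the 7 summed log2 ratios, 2 lay above 0 and 5 below (71.4%, beside 48.3% of all genes), with a median of -0.02. On undivided sums 5 were higher and 2 lower (28.6%, beside 33.4%).

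Class C, the most varied DnaJ class, had 25 of 28 genes with peaks, 7 with more (28%, beside 32.5% of all genes) and 12 with fewer peaks in the DOP list (48%, beside 28.5%). Its summed log2 ratios ran from -0.35 at Dnajc18 to 0.54 at Dnajc4, with a median of -0.02 over 24 genes. Dnajc4 gave the highest ratio of all chaperone genes within 1 kb. It had 541.0 and 377.0 in the DOP list and 302.0 and 293.0 in the untreated list at matching positions around its start, or 918.0 and 595.0 in all over 400 bp each (means 459.0 and 297.5), while over 10 kb, where stronger peaks of Vegfb, Nudt22 and Trpt1 enter, the ratio was -0.05. Dnajc5, which encodes the cysteine string protein of synaptic vesicles, had peaks of 1631.0 (97.6) and 1797.0 (98.2) near its start and sums of 2403.0 from 2 peaks over 400 bp (mean 1201.5) and 2755.0 from 3 over 600 bp (918.3). Dnajc6, which encodes auxilin and is a gene of neurons, had no peak, and its nearest peaks lay 96375 and 96368 bp away.

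A list of 8 chaperone genes of the endoplasmic reticulum, which leaves out the membrane protein Dnajb12, had peaks at all 8. Among them 7 summed log2 ratios lay below 0 (87.5%, beside 48.3% of all genes) and 1 above. On undivided sums, however, 4 were higher in the DOP list and 4 lower (50%, beside 33.4%). The ratios lay between -0.27 at Hspa13 and 0.11 at Dnajc1, with a median of -0.08. Dnajb11, a soluble partner of BiP, had its highest peak at 239 bp with 930.5 (84.6) in the DOP list and at 206 bp with 923.1 (85.3) in the untreated list. Dnajc3, which also inhibits the kinase PERK, had 1050.0 (88.7) and 875.0 (83.5) at 366 and 367 bp, and Dnajc10, a disulfide reductase, had 866.5 (82.1) and 697.0 (74.8). The ranks of Dnajc3 and Dnajc10 were thus higher in the DOP list, whereas their summed log2 ratios were -0.18 (487 and 694 bp covered, means 655.7 and 524.8) and -0.02 (381 and 337 bp, means 724.0 and 692.0). At Dnajc1, a membrane DnaJ protein, the highest peak had 591.3 (66.1) at 83 bp and 962.0 (86.6) at 103 bp, with sums of 1788.0 from 5 peaks over 891 bp (mean 357.6) and 1561.0 from 2 over 400 bp (780.5). Dnajb9, an inducible partner of BiP, had 844.8 (81.1) in the DOP list at 331 bp and 571.3 (66.2) in the untreated list at 312 bp, where a neighbour of 287.4 lay at 226 bp, and the sums were 1076.0 over 600 bp and 1039.0 over 486 bp (means 358.7 and 346.3). The endoplasmic reticulum stress element, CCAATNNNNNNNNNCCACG, was searched on both strands in the same windows. It was found in 2 of 81 promoters at the gene start (2.47%, beside 0.0983% of all promoters) and near any start in 3 of 81 (3.7%, beside 0.152%), which were Dnajc3, Hsp90b1 and Hspa5. They are printed to show the element of this class of genes, with the element in capitals.
Hspa5, chr2:34627540-34627568, plus strand: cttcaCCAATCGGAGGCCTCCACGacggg
Hsp90b1, chr10:86168273-86168301, minus strand: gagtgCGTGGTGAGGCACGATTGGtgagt
Hsp90b1, chr10:86168359-86168425, minus strand: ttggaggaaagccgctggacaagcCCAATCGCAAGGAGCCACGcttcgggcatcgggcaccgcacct
Dnajc3, chr14:119337025-119337091, plus strand: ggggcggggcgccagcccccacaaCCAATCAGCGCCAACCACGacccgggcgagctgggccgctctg
The nearest peak centres lay 395 bp (DOP-treated) and 248 bp (untreated) from the element of Hspa5, 316 and 383 bp from the element of Hsp90b1 nearer to its start, and 364 and 359 bp from that of Dnajc3. None of these elements lay inside a 200-bp peak of either list.

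All 6 BAG genes had peaks. Bag5, whose start lies 4 bp from that of a gene on the opposite strand, had the largest upward difference in rank of all chaperone genes, 21.6 points, with 832.0 at 78 bp in the DOP list (80.5) and 487.0 at 55 bp in the untreated list (58.9). The untreated list had a neighbour of 432.2 at 180 bp, and the summed scores were 1312.0 from 2 peaks over 400 bp (mean 656.0) and 1346.1 from 3 over 525 bp (448.7), a log2 ratio of -0.12. Bag6 had 1523.0 from 2 peaks over 400 bp (mean 761.5) and 1025.0 from 1 peak over 200 bp, a log2 ratio of 0.49, with an intronic DOP-only peak of 438.0 and a matching peak of 1085.0 and 1025.0. The other 5 BAG genes had summed log2 ratios between -0.15 and -0.03, so that 5 of the 6 lay below 0 (83.3%, beside 48.3% of all genes). On undivided sums 3 of the 6 were higher and 3 lower (50%, beside 33.4%).

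**Figure D4:**
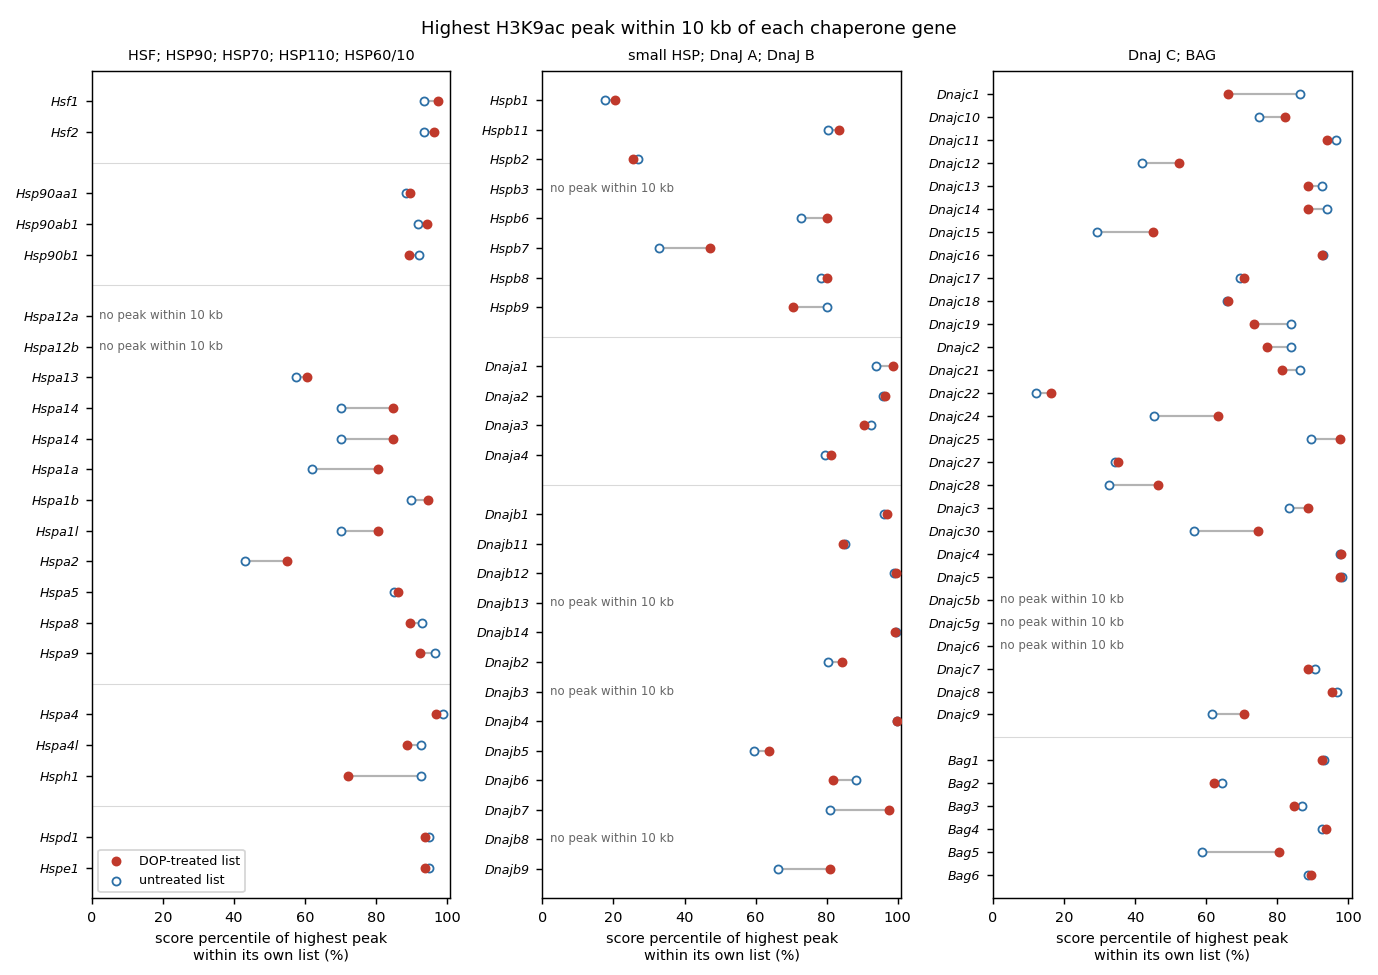
Score percentile of the highest peak within 10 kb of each chaperone gene in the DOP list (filled red) and in the untreated list (open blue), by family, with a line joining the pair. Most pairs lie within 10 points, and the longest lines are those of Bag5 (58.9 and 80.5), Hsph1 (92.7 and 72.2) and Dnajc1 (86.6 and 66.1).

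Across the 72 genes with peaks in both lists, the highest peak stood over 10 percentile points higher in the DOP list at 14 (19.4%, beside 13.6% of all genes with peaks in both) and over 10 points lower at 3 (4.17%, beside 7.68%). The 14 include both records of Hspa14, as well as Hspa1a and Hspa1l, which have their highest DOP-treated peak in common. The median shift was 1.0 points, beside 0.6 for all genes. The largest upward differences after Bag5 were 18.7 points at Hspa1a, 18.0 at Dnajc24, 17.9 at Dnajc30 and 16.6 at Dnajb7, and the downward ones beside Hsph1 were -20.5 at Dnajc1, -10.6 at Dnajc19, -9.5 at Hspb9 and -7.0 at Dnajc2. At Hspa1a, Dnajc30 and Dnajb7 the peak lay nearest to another gene, Lsm2, Wbscr22 and St13. The difference at Hspa1a leaves out an untreated peak at the percentile of 70.2, which lay just outside the window at 10099 bp. With each gene's own nearest peaks alone, 11 of 63 genes stood over 10 points higher (17.5%, beside 15%) and 4 lower (6.35%, beside 8.41%). Compared peak by peak over the 233 DOP-treated peaks that overlapped an untreated peak, 41 stood over 10 points higher (17.6%, beside 16.2%) and 48 lower (20.6%, beside 16.6%).

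Neighbouring peaks were then added up, on a scale and with a limit that are not comparable with percentile points. Within 1 kb of the starts, none of the 64 genes with peaks in both lists had a summed score over 1.5 times higher in the DOP list as a share of the list's total, beside 3.93% of all such genes, and none was over 1.5 times lower, beside 2%. Their log2 ratios ran from -0.42 to 0.54 with a median of -0.05, and 24 lay above 0 (37.5%, beside 51.7% of all such genes) and 40 below (62.5%, beside 48.3%). The median of all 11094 such genes was 0.01. This split rests on the division by the list totals. On the sums as deposited 35 chaperone genes were higher in the DOP list (54.7%, beside 66.4%), 28 were lower (43.8%, beside 33.4%) and 1 was equal. Of the 14 genes whose highest peak ranked over 10 points higher, 10 had peaks within 1 kb in both lists, and their summed log2 ratios lay between -0.12 and 0.33, with 6 above 0 and 4 below. The 3 whose highest peak ranked over 10 points lower, Hsph1, Dnajc1 and Dnajc19, had 0.10, 0.11 and 0.00. At Dnajc15 a peak of 374.0 in the DOP list stood against untreated peaks of 232.5 and 141.5, which add up to the same score. At Dnajc24 and Dnajc28 the sums were 556.0 against 538.0 and 386.0 against 361.0, each from 1 DOP-treated peak over 200 bp and 2 untreated peaks over 348 and 342 bp (means 269.0 and 180.5 in the untreated list). Over 10 kb, 1 of 72 genes was over 1.5 times higher (beside 4.21%), which was Hspa1a with a log2 ratio of 0.82 (600 and 200 bp covered), and 1 was over 1.5 times lower (beside 2.08%), which was Hspb1 with -1.41 (200 and 1200 bp covered). An untreated peak of 626.6 lay 10099 bp from Hspa1a, just outside the window. The window of Hspa1l takes in that peak, and the log2 ratio of Hspa1l over 10 kb was -0.08. Hspa1a and Hspa1l had peaks within 1 kb in the DOP list only and Hspb1 in the untreated list only, all of them weak.

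**Figure D5:**
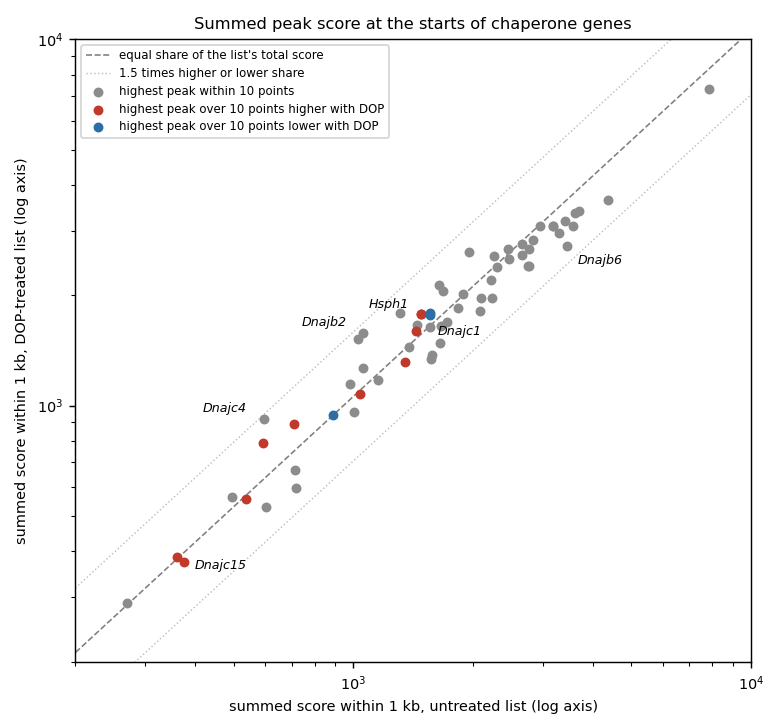
Summed peak score within 1 kb of the starts of the 64 chaperone genes with peaks there in both lists, in the untreated list (horizontal, log axis) and in the DOP list (vertical, log axis). Each point is a gene, coloured by whether its highest peak ranked over 10 points higher (red), lower (blue) or neither (grey), the dashed line marks equal shares of the lists' totals and the dotted lines a share 1.5 times higher or lower. All points lie between the dotted lines, and the coloured ones have log2 ratios between -0.12 and 0.33.

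The 9 genes without a peak in either list were Dnajb3, Dnajb8, Dnajb13, Dnajc5b, Dnajc5g, Dnajc6, Hspa12a, Hspa12b and Hspb3. Their nearest peaks lay between 14982 bp (Dnajc5g, DOP list) and 96910 bp (Dnajc5b, untreated list) from a start. In a list of 13 genes known mainly from testis, muscle or other single tissues, 6 of these 9 appear, and 7 of the 13 had peaks. The 7 included Hspb2, Hspb7, Hspb9, Dnajb7 and Hspa1l, whose stronger peaks all lay more than 1 kb from their starts. The highest peak of the 7 stood over 10 points higher in the DOP list at 4 (57.1%, beside 13.6% of all genes), with a median shift of 10.5 points (0.6 for all genes). These 4 were Hspa2, Hspb7, Dnajb7 and Hspa1l, and the peaks of Dnajb7 and Hspa1l lay nearest to St13 and Lsm2.

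Position relative to the start was alike in chaperone genes and in all genes. Among genes with a peak nearest to their own start, the highest such peak lay downstream of it in 53 of 64 chaperone genes in the DOP list (82.8%, beside 83.4% of all genes) and in 52 of 64 in the untreated list (81.2%, beside 84%). Its median position was 232 and 208 bp downstream, beside 206 bp for all genes in each list. It lay within 500 bp of the start at 60 of the 64 (93.8%, beside 89%) and at 55 (85.9%, beside 89.2%).

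The promoters shared features that the choice by symbol did not use. Another gene started within 1 kb on the opposite strand at 23 of 81 genes (28.4%, beside 10.8% of all genes), among them the pairs Hspd1 and Hspe1, Hspa1a and Hspa1l, Hsf1 and Bop1, Bag1 and Chmp5, and Dnajc2 and Psmc2. At such a pair the peaks near the start of either gene are counted for the other as well. The 23 include both records of Hspa14, which have the same partner, Cdnf. They also include both genes of the pairs Hspd1 and Hspe1 and Hspa1a and Hspa1l. The share of all genes likewise counts both genes of a pair. In the 300 bases around the gene start, chaperone promoters had a median GC content of 61% and a median of 21 CpG dinucleotides, beside 55% and 11 in all promoters. The 72 genes with peaks had a median of 22.5 CpG and the 9 without had 9, and for all genes these medians were 19 and 3. CCAAT was found in 35 of 81 promoters (43.2%, beside 37.9%), TATAAA in 6 (7.41%, beside 13.4%) and the inverted repeat GAANNTTC, which lies inside every element of 3 units, in 12 (14.8%, beside 7.56%).

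Other genes of the folding pathway were taken from lists of partners that the symbol rule leaves out. All 9 genes of the cytosolic chaperonin TRiC had peaks in both lists, none with a summed score over 1.5 times higher or lower. Their median log2 ratio was -0.10, with 2 above 0 and 7 below (77.8%, beside 48.3% of all genes). On undivided sums 4 were higher and 5 lower (55.6%, beside 33.4%). Of 5 prefoldin genes, whose products hand substrates to TRiC, 5 had untreated and 4 had DOP-treated peaks, and Vbp1 had 2 untreated peaks only, the higher at the percentile of 30.2. All 16 partners of HSP90 and HSP70 had peaks. Among them, Sugt1, a co-chaperone of HSP90, was over 1.5 times higher in the DOP list, with 1102.0 from 3 peaks over 600 bp (mean 367.3) and 463.0 from 1 peak over 200 bp, a log2 ratio of 1.17, although its highest peak stood at 55.7 and 56.5. Ppid, a cyclophilin that binds HSP90, had its highest peak at 90.5 and 74.5 but sums of 1547.0 from 2 peaks over 319 bp (mean 773.5) and 1965.0 from 4 over 713 bp (491.2), a log2 ratio of -0.43. Hsf4 and Hsbp1, a further heat shock factor and a binding partner of the factors, had peaks in both lists, and Hsf5 had none.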

How the data were processed

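H3K9ac ChIP-seq was made from 2 DOP-treated and 2 untreated samples, with 1 IgG sample that has no list of its own and was not analysed here. The authors aligned single-end reads to mm9 and called peaks with GPS. The aligner is Bowtie 2 in the study's methods and BWA 0.7.10 in the submitters' processing notes. How the samples and the IgG sample entered the call, and its threshold, are not given in the sources used here. The authors deposited 1 list per condition of 200-bp peaks with a centre and a score, whose definition and depth are not given. Samples that share a condition are not said to come from separate cultures.

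Gene records and transcript starts came from GENCODE vM1 and sequences from the NCBIM37 assembly (mm9), beyond whose chromosome ends 0 peaks lay on 21 chromosomes. Scores were ranked within each list. Overlap of at least 1 bp counted as shared. Summed scores, which were added after the peaks had been seen, used all peaks within 1 kb of any start, divided by the total score of the list. A fold of 1.5 or a shift of 10 percentile points stood in for a test. Counts were set beside the same count over all protein-coding genes. The members and all gene lists were chosen with earlier results of these data known. Genes named with values were those of the fixed lists (heat shock factors, heat-inducible, endoplasmic reticulum, mitochondrial, polyglutamine, tissue-restricted, partners), the 5 with the largest rise and the 5 with the largest fall in rank, and the 5 with most peaks. Dnaja2, Dnaja4, Dnajb4, Dnajb12, Dnajb14, Dnajc5, Dnajc6, Dnajc18, Dnajc28, Hsp90ab1, Hspa4l, Hspa14 and Bag6 were named after their values were seen. The counting functions were tested on simulated peaks. Alternatives were other windows, starts, score limits, overlap rules and motifs. Python 3.11.15, matplotlib 3.10.9 and samtools 1.23.1 were used.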

Additional observations from a re-analysis of the deposited data

How the results depend on the processing

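No paired analysis was possible because each condition has 1 list and the lists carry no replicate, and for the same reason no sample could be left out. Of 83 alternatives over 15 results, 63 stayed within 1.5 times of the reported count. Of the others, counting only peaks nearest to a chaperone start left 173 DOP-treated peaks, and the top 50% by score left 167 DOP-treated and 163 untreated peaks. DOP-only peaks numbered 15 within 1 kb, 4 in the top 50%, 57 with a reciprocal overlap of 50% and 16 with centres within 500 bp, and untreated-only peaks 17, 4, 65 and 15. Genes with more DOP-treated peaks fell to 15 within 1 kb, genes with fewer to 12 in the top 50%, and genes with a highest peak over 10 points higher to 8 in the top 50%. Genes over 1.5 times higher in summed score were 1 over 10 kb (Hspa1a) and 1 without division by the list total (Dnajc4), and genes over 1.5 times lower were 1 over 10 kb (Hspb1). Without that division, 35 summed scores were higher and 28 lower in place of 24 and 40. These summed results, and the search at every start, were chosen after seeing the data. Heat shock elements were found in 2 promoters of 500 bases, in 8 genes at every start and in 12 promoters as the inverted repeat. The smaller counts have fewer peaks by construction, and the cause of the others was not tested. Depth per sample is unknown.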
